A study of Mus musculus with 15 samples.

Results

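BAF complexes, the mammalian SWI/SNF chromatin remodellers, were followed through 10 listed subunit genes in purified mouse cerebellar cells. The genes were chosen by name, as core subunits and as members of the paralog pairs that differ between dividing progenitors and neurons: Smarca4, Smarca2, Arid1a, Arid1b, Smarcb1, Actl6a, Actl6b, Dpf1, Dpf3 and Ss18l1. Counts were used for 9 of them, out of 21889 genes in the gene table, and Smarcb1 was not analysed here. All 9 passed the filter on low counts, which left 15259 genes to be tested.

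Poly(A) RNA was sequenced from 15 libraries, 3 in each of 5 groups, in a study of how Ezh2, a Polycomb methyltransferase, bears on the timing of differentiation genes in the cerebellum. In 4 groups the cells were labelled as granule neuron precursors (12 libraries). Such precursors divide in the cerebellum and become its granule neurons. The label does not give the mix of cells: at P14, oligodendrocyte markers summed higher than those of the granule lineage, as given below. The genotype label was Math1-GFP at E15.5 (an embryonic age) and WT at P1, P7 and P14 (postnatal days). The fifth group was medulloblastoma cells (MB, 3 libraries), labelled Ptch1 heterozygous, for which the labels give no age. Math1 is another name of Atoh1, a transcription factor of granule precursors, and Ptch1 is the Sonic hedgehog receptor. Cells of every group were purified on Percoll, a density gradient that does not select on a marker, and the labels name no sort on GFP. The Math1-GFP label and the age change together in each comparison with E15.5 and cannot be told apart, and the same holds for genotype and tumour state in MB. The labels do not say whether the libraries of a group came from separate animals. Each p-value sets a difference against the spread between libraries, estimated over all 5 groups, and may not extend to other animals.

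BAF complexes use the energy of ATP to move nucleosomes. Each complex takes 1 of several related proteins at a given position, and in the textbook account neural progenitors carry Actl6a, Phf10 or Dpf2, and Ss18, while neurons that leave the cell cycle carry Actl6b, Dpf1 or Dpf3, and Ss18l1 in their place. The ATPases Smarca4 and Smarca2 and the Arid1 subunits are paralogs whose balance also differs between cell types, and several of these genes are mutated in neurodevelopmental disorders and in tumours.

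The start regions of Actl6a and Actl6b are shown because the results turn on the ratio of this paralog pair, and that of Ss18l1 because its level followed that of Actl6b most closely among the member pairs. Each run covers 300 bases from RefSeq on GRCm38.p6, 250 upstream of the start site and 50 from it on, on the plus strand: chr3:32708296-32708595, chr5:137553296-137553595 and chr2:180042233-180042532. Capitals mark matches to GGGCGG and to CCAAT on either strand.

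Actl6a: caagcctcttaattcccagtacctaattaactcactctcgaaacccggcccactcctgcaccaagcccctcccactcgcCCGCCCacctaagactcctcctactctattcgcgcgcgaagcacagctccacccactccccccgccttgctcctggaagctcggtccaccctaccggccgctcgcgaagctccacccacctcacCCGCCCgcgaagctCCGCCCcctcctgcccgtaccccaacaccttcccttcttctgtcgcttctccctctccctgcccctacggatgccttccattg

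Actl6b: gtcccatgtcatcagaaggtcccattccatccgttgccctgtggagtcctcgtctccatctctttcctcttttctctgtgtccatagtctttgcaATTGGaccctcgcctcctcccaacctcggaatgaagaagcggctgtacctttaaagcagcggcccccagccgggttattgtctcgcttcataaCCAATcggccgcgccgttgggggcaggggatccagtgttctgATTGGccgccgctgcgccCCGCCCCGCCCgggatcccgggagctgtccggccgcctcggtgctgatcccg

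Ss18l1: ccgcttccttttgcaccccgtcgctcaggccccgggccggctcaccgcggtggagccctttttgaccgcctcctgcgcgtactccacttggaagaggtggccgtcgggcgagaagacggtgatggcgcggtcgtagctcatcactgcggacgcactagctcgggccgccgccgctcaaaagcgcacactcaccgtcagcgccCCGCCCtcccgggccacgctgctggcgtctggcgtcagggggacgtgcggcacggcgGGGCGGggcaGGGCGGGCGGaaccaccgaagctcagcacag

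Actl6a held 3 matches to GGGCGG and 0 to CCAAT. Actl6b held 2 overlapping matches to GGGCGG and 3 to CCAAT, and Ss18l1 held 4 matches to GGGCGG, 2 of them overlapping, and 0 to CCAAT. Of 32851 RefSeq promoters of this length, 35.7% held GGGCGG and 37.4% held CCAAT. The motifs CAGATG and CACGTG, each found in 17.2% and 7.15% of promoters, had 0 matches in all 3 sequences, as did GCGCGAAA (0.323%). GGACAG (22.2%) had 1 match, in Actl6b. These matches describe letters and were not tested as binding sites, and the authors' positions below are on mm9, an older build, and were not converted.

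The libraries held 12597472 to 43443132 counts in genes. Markers of the granule lineage (6 genes) summed to 2516 to 5778 CPM (each count relative to its library's total, with TMM scaling) in all groups. Other cell types varied with age: a list of 8 oligodendrocyte genes summed to 36.8 to 59.1 CPM at E15.5, 173 to 3748 at P1, 705 to 1646 at P7, 6017 to 6525 at P14 and 114 to 221 in MB. For 5 GABAergic interneuron genes the sums were 441 to 622, 154 to 201, 174 to 266, 106 to 164 and 4.96 to 8.21 CPM, and for 6 astroglial genes they were 118 to 190, 1836 to 3205, 1527 to 3352, 3008 to 3879 and 747 to 1267 CPM. Purkinje cell genes (5) summed to 91.6 to 163, 179 to 294, 217 to 742, 157 to 288 and 25.7 to 41.3 CPM. In the same order of groups, sums were, for 6 vascular genes, 14.7 to 32.2, 396 to 564, 285 to 355, 672 to 747 and 19.0 to 28.0 CPM. For 7 microglia and macrophage genes they were 5.35 to 24.0, 80.5 to 137, 47.5 to 146, 140.2 to 203 and 157 to 423 CPM, and for 4 choroid plexus genes 26.7 to 286, 293 to 10290, 11.3 to 1961, 5095 to 8465 and 14.3 to 167 CPM. All genes of these lists had counts in each group. The granule neuron marker Gabra6 was at 0 counts in E15.5 and at 1.12, 12.5 and 102 CPM at P1, where the library labelled P1 replicate 3 also held the oligodendrocyte maximum of 3748. Set against the other E15.5 libraries, replicate 3 had a median of 0.88 on the log2 scale over 668 genes of the shortest transcripts and of -0.80 over 668 of the longest. The part of these differences in the results was not tested, and counts without both libraries are given below. In bulk samples, fewer cells of a type and less RNA per cell cannot be told apart.

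The 4 ages were compared first, to ask which subunit genes differ between ages in the cells labelled as precursors. Of the 9 genes, 5 differed among the 4 ages by edgeR's quasi-likelihood test with Benjamini-Hochberg adjustment over all genes (FDR under 0.05): Smarca4, Actl6a, Actl6b, Dpf1 and Ss18l1. Over all genes tested the share was 55.7%, so 5 of 9 was near the background. Among the steps between neighbouring ages, the first held the most calls. From E15.5 to P1, 5 members fell (20.9% of all genes did) and 0 rose (25.4% of all genes). Those that fell were Smarca4, Actl6b, Dpf1, Dpf3 and Ss18l1. Actl6a was not called at this step, and Dpf3 was not called among the 4 ages. The median log2 change over the 9 members was -0.94, against 0.03 over all genes. Without E15.5 replicate 3 and the library labelled P1 replicate 3, 5 members were also called. The interneuron list fell at this step too, from 441 to 622 CPM at E15.5 to 154 to 201 at P1. The granule lineage list overlapped, and the lists of the other cell types were higher at P1. The part of these lists in the falls was not tested. All 4 neuron-associated subunits had their highest mean level at E15.5, the earliest age, although for Dpf3 the libraries of the ages overlapped. How many of all genes had their highest mean there was not counted. The textbook account sets dividing progenitors against neurons and does not order ages, so this order by age was not a test of it.

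**Figure D1:**
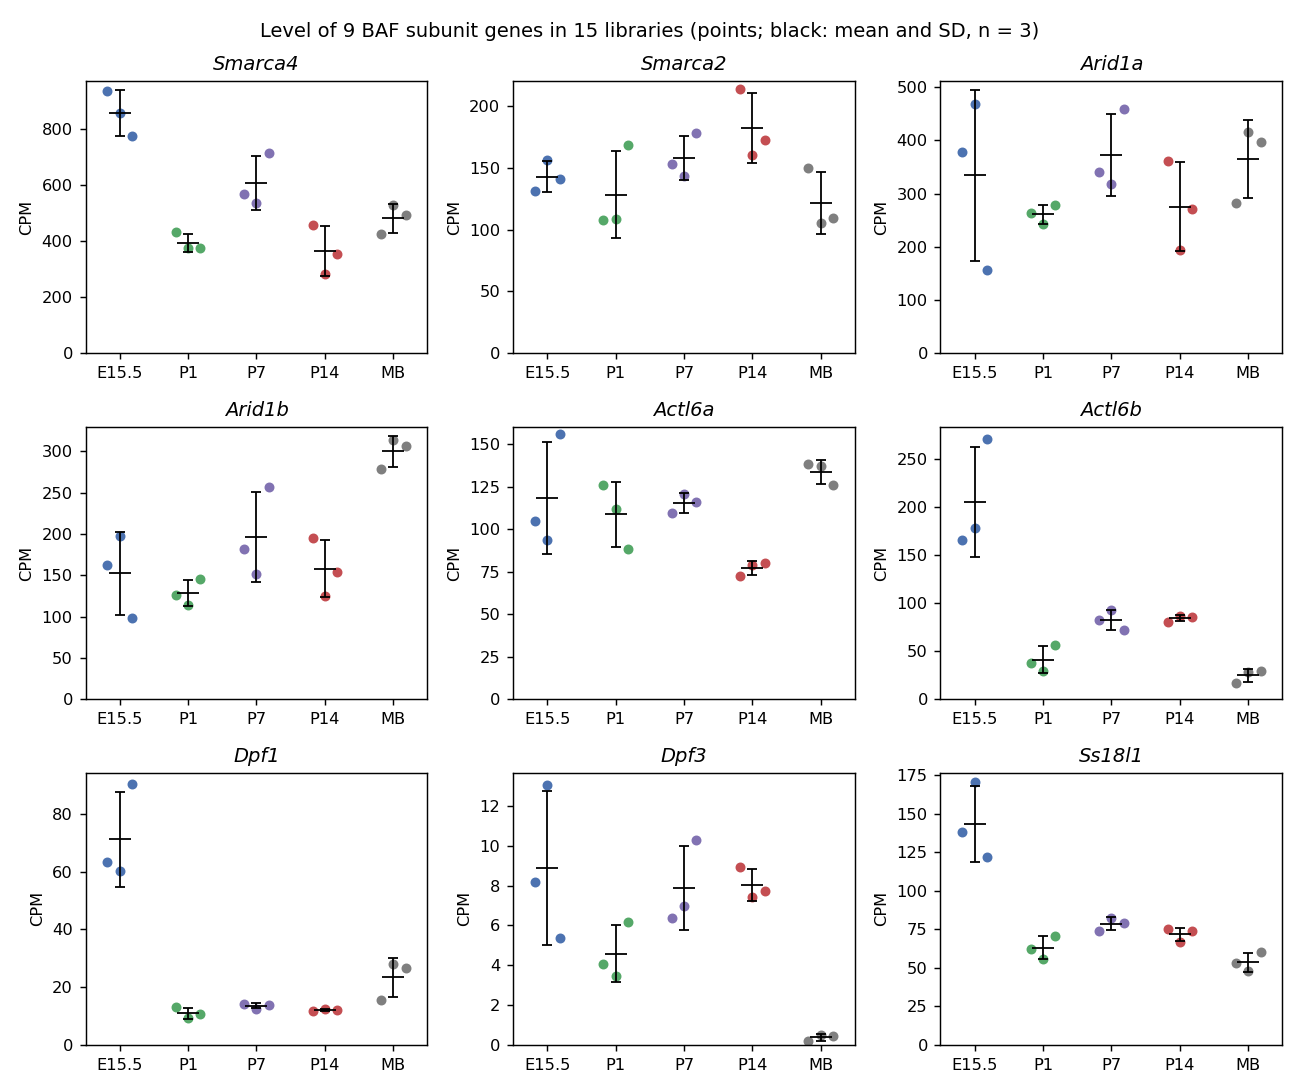
Level of each of the 9 genes in CPM (y axis, linear from 0) in the 15 libraries, by group (x axis). Points are libraries, placed left to right as replicates 1 to 3, and black bars are the group mean and SD (n = 3). Smarca4, Actl6b, Dpf1 and Ss18l1 were higher in all 3 E15.5 libraries than in any other library. How many of all genes share this pattern was not counted.

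Among the neuron-associated subunits, Actl6b encodes the actin-related protein of neuronal BAF (chr5:137994748-138010810 on mm9, 14 exons). Its level was 166, 178 and 271 CPM in the E15.5 libraries, 37.6, 29.1 and 56.8 at P1, 82.4, 92.9 and 72.4 at P7, and 80.6, 86.9 and 85.4 at P14. In MB it was 17.2, 27.9 and 29.7 CPM. The E15.5 libraries lay above all others, the P7 and P14 libraries overlapped each other and lay above all of P1, and 2 of the 3 MB libraries lay below all of P1. From E15.5 to P1 Actl6b fell by 2.32 on the log2 scale (SE 0.27, 4.98-fold, FDR 1.10e-05 by edgeR). From P1 to P7 the estimate was a 2.01-fold higher level that just missed the threshold (log2 1.00, SE 0.26, FDR 0.0501).

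From P1 to P14 Actl6b rose by 1.03 on the log2 scale (SE 0.26, 2.05-fold, FDR 0.0277 by edgeR). It was the only 1 of 9 members called higher, where 3.63% of all genes were, and 0 were called lower, where 5.31% were. The order of group means was E15.5, P14, P7, P1 and MB. The neighbours P14 and P7 did not differ beyond their spread (log2 0.03, FDR 0.952), and P1 against MB was not tested. The rise from P1 depended on which libraries were kept. Without P1 replicate 1 or 2 the FDR was 0.147 or 0.156 (log2 0.97 and 0.84), and without P14 replicate 1, 2 or 3 it was 0.0711, 0.0975 or 0.0911. Without the library labelled P1 replicate 3, which had the highest P1 value, the log2 change was 1.34 (FDR 0.00353) and the P7 against P1 change was 1.31 (FDR 0.0137).

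Dpf1 encodes a PHD-finger subunit of neuronal BAF (chr7:30088970-30102607 on mm9 over its 2 transcripts). It was measured at 63.2, 60.1 and 90.2 CPM at E15.5, 13, 9.23 and 10.6 at P1, 14.03, 12.6 and 13.98 at P7, and 11.6, 12.3 and 12.2 at P14. The MB libraries held 15.47, 28.0 and 26.6 CPM, above every postnatal library and below every E15.5 library. Dpf1 had the largest change of the members from E15.5 to P1, a fall by 2.70 on the log2 scale (SE 0.25, 6.51-fold, FDR 1.29e-06 by edgeR). After P1 its level was not called at any step (log2 0.31 to P7 with FDR 0.505, and -0.17 from P7 to P14 with FDR 0.679).

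Ss18l1 encodes a calcium-responsive coactivator that takes the place of Ss18 in neurons (chr2:179777214-179804906 on mm9, 11 exons). Its 3 libraries stood at 138, 171 and 122 CPM at E15.5, 62.05, 56.0 and 70.8 at P1, 74.2, 82.5 and 79.3 at P7, 75.0, 67.1 and 73.7 at P14, and 53.1, 47.8 and 60.0 in MB. E15.5 lay above the rest, P14 overlapped both P1 and P7, and MB overlapped P1 alone. From E15.5 to P1 Ss18l1 fell by 1.19 on the log2 scale (SE 0.16, 2.28-fold, FDR 4.07e-05 by edgeR). The postnatal steps were not called (log2 0.32 from P1 to P7, FDR 0.276, and -0.13 from P7 to P14, FDR 0.636).

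Dpf3, another PHD-finger subunit of neuronal BAF (chr12:84314732-84451882 on mm9, minus strand), had the lowest level of the members in the gene table. That rank depends on the table: over its longest transcript Dpf3 had 1100, 1062 and 1069 counts at P7, where the longest Dpf1 transcript, a shorter one, had 488, 479 and 372. In the gene table Dpf3 had 8.20, 13.03 and 5.38 CPM at E15.5, 4.08, 3.45 and 6.18 at P1, 6.37, 6.95 and 10.3 at P7, and 8.94, 7.44 and 7.72 at P14. In MB it had 0.198, 0.489 and 0.440 CPM, or 36 counts over the 3 libraries. E15.5 overlapped each postnatal age, P1 lay just below P7 and P14, and MB lay far below every other library. The fall from E15.5 to P1 passed the test (log2 -0.94, SE 0.35, FDR 0.0401 by edgeR), although the libraries overlapped. That call was lost in a fit of these groups alone (FDR 0.0861), without E15.5 replicate 1 or 2 (FDR 0.0635 and 0.206) and without P1 replicate 1 or 2 (FDR 0.106 and 0.144), and with both doubted libraries left out it was -1.52 (FDR 0.00722). The gene table held 12.6% to 26.7% of the count that the transcript table gave for the longest Dpf3 transcript, against 93.5% to 100.1% for the 7 other members with a transcript, so the level of Dpf3 may be understated. The cause was not tested, and the transcript table, summed over the Dpf3 models, gave a fitted log2 change of -1.0 for the same step.

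Among the subunits of progenitors, Actl6a encodes the actin-related protein that Actl6b replaces (chr3:32607468-32625890 on mm9, 14 exons). It stood at 105, 93.7 and 156 CPM at E15.5, 126, 112 and 88.3 at P1, and 109, 121 and 116 at P7. It was lower at P14, with 72.2, 78.8 and 80.3 CPM, and it was 138, 137 and 126 in MB. All 3 P14 libraries lay below every other library, while E15.5, P1 and P7 overlapped. Against E15.5, Actl6a fell at P14 by 0.62 on the log2 scale (SE 0.19, 1.53-fold, FDR 0.0122 by edgeR). The change from P7 to P14 was -0.58 (FDR 0.0596) and that from P1 to P14 was -0.49 (FDR 0.102). Neither was called. The latter was -0.62 (FDR 0.0416) when the library labelled P1 replicate 3 was dropped. The change from P7 to P14 was called in 3 of 13 alternatives. These were a fit of the 2 groups alone (FDR 0.00963 by edgeR), DESeq2 (FDR 0.0348) and the transcript table (FDR 0.0455 by edgeR).

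Smarca4, the main ATPase of neural progenitor BAF (chr9:21420613-21508674 on mm9, 34 exons), had the highest mean level per kilobase in each group among the 8 members with a transcript (Arid1a has none). Its values were 939, 860.2 and 776 CPM at E15.5, 432, 375 and 377 at P1, 571, 536 and 717 at P7, 459, 283 and 355 at P14, and 425, 528 and 493 in MB. The order of means was E15.5, P7, MB, P1 and P14, with P1, P14 and MB overlapping one another. Smarca4 fell by 1.12 from E15.5 to P1 (SE 0.20, 2.17-fold, FDR 3.48e-04 by edgeR). From P1 to P7 its log2 change of 0.62 was not called (FDR 0.0897), although the libraries did not overlap.

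From P7 to P14 Smarca4 fell by 0.73 on the log2 scale (SE 0.20, 1.66-fold, FDR 0.0297 by edgeR). It was the only 1 of 9 members called lower at that step, where 4.51% of all genes were, and 0 were called higher, where 5.81% were. That call was lost without P7 replicate 2 or 3 (FDR 0.0718 and 0.0911) and without P14 replicate 2 or 3 (FDR 0.147 and 0.102). All P7 libraries share a difference in counting with 3 other libraries, which no P1 or P14 library has: for Tsnax, the gene table's count was 0.273% of that in the transcript table or less in these 6 and 92.4% or more in the other 9. For the members the same ratio overlapped between these libraries and the others. With this set as a term, estimated from E15.5 and MB alone, the Smarca4 change was -0.87 (FDR 0.111).

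From P1 to P7, 0 of the 9 members were called in either direction by edgeR, where 1.40% of all genes were called higher and 1.74% lower. Of the members, 4 had an unadjusted p under 0.05 (Smarca4, Arid1b, Actl6b and Dpf3, all with higher estimates at P7). The share of all genes at that unadjusted threshold was not computed. DESeq2 called 2, Smarca4 and Actl6b, and it also called more of all genes than edgeR, as given below. The median log2 change of the 9 was 0.51, against -0.01 over all genes.

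Smarca2 encodes the alternative ATPase (chr19:26679605-26852811 on mm9, 33 exons). It had 131, 157 and 141 CPM at E15.5, 108, 108 and 169 at P1, 153, 143 and 178 at P7, 214, 160.3 and 173 at P14, and 150.0, 105 and 109 in MB. These groups overlapped except that all P14 libraries lay above all E15.5 and MB libraries. Its changes with age were not called, with log2 values of -0.16 from E15.5 to P1 (FDR 0.555) and 0.51 from P1 to P14 (FDR 0.124). The latter was 0.76 (FDR 0.0181) without the library labelled P1 replicate 3, whose 169 CPM was the highest P1 value.

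The transcript table gave Smarca2 a further short model that covers the 3′ part of the gene, with 9 exons and 1858 bases against 5858 for the long one. Reads over both models count for each. The ratio of reads per base of the short to the long model was 1.94, 1.86 and 2.43 at E15.5, 2.11, 2.00 and 1.40 at P1, 1.48, 1.68 and 1.35 at P7, 1.16, 1.27 and 1.23 at P14, and 1.82, 1.84 and 2.01 in MB. All P14 libraries lay below all others, and the 3 MB libraries lay within the range of E15.5 and P1. The group means were 2.08 ± 0.31 at E15.5 and 1.22 ± 0.05 at P14 (SD, n = 3). Whether uneven coverage along the gene has a part in this ratio was not tested.

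**Figure D2:**
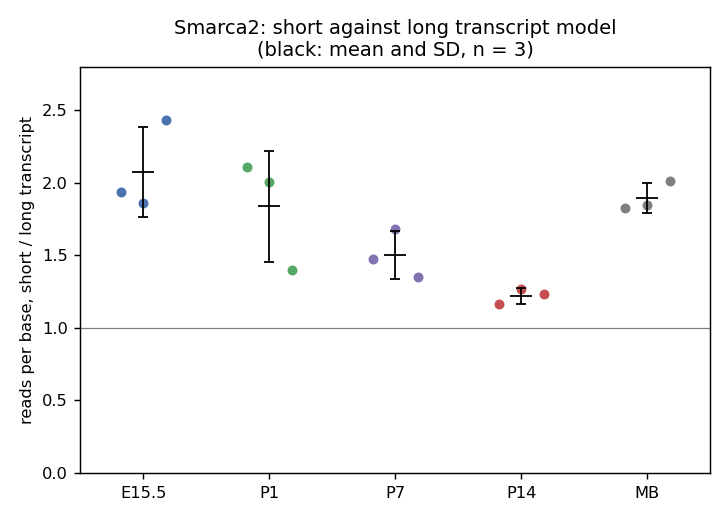
Reads per base over the short Smarca2 model divided by reads per base over the long one (y axis, linear from 0) in each library, by group (x axis). Points are libraries and black bars the mean and SD (n = 3), and the grey line marks equal density. The P14 libraries lie lowest, at 1.16 to 1.27.

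Arid1a and Arid1b encode alternative DNA-binding subunits that define canonical BAF. Arid1a had 378, 468 and 157 CPM at E15.5, 263, 243 and 278 at P1, 339.8, 318 and 459.6 at P7, 360.5, 193 and 272 at P14, and 282, 415 and 397 in MB. The E15.5 libraries spanned the range of all the others, and the lowest value was E15.5 replicate 3, in which long transcripts were low. Arid1a was not called at any step among the ages (FDR 0.386 from E15.5 to P1), and without that library it was lower at P1 by a log2 change of -0.75 (FDR 0.0307) and at P14 by -0.69 (FDR 0.0375). Arid1b (chr17:4995074-5347656 on mm9, 20 exons) had 162, 197 and 98.35 CPM at E15.5, 126, 114 and 146 at P1, 182, 151 and 257 at P7, 195, 125 and 154 at P14, and 279, 314 and 307 in MB. The 3 MB libraries were the highest, and the ages overlapped apart from P1 and P7. Arid1b was not called among the ages (log2 0.61 from P1 to P7, FDR 0.188).

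Over the whole interval from E15.5 to P14, 5 of 9 members fell (24.2% of all genes) and 0 rose (26.7% of all genes). They were Smarca4 (log2 -1.23, FDR 1.25e-04), Actl6a (-0.62), Actl6b (-1.28, FDR 9.12e-04), Dpf1 (-2.56, FDR 1.13e-06) and Ss18l1 (-0.997, FDR 1.29e-04). This comparison shares its E15.5 libraries with that of P1 and E15.5. Progenitor-associated Actl6a and the neuron-associated Actl6b, Dpf1 and Ss18l1 were therefore all lower at P14 than at E15.5. The call of Actl6a was lost inside the 9 libraries of 1 counting set, where its change was -0.30 (FDR 0.215) where E15.5 is left with replicate 2 alone (assumed to vary like the other groups), and with the set as a term, at -0.42 (FDR 0.143). Short genes as a class, the 668 with transcripts of at most 1473 bases, had a median change of -0.72 at P14 against E15.5 and of -0.73 at P1 against E15.5, and the 668 longest had 0.13 and 0.25. Actl6a, Actl6b and Dpf1 have longest transcripts of 1966, 1592 and 2309 bases, above that limit. Each of these genes had its highest E15.5 value in replicate 3, the library in which short transcripts were high. The part of length in their changes was not tested.

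MB was compared with the cells labelled as granule neuron precursors at P7 and P14, to set the tumour cells beside normal cells of 2 ages. At P14 the oligodendrocyte list summed to 6017 to 6525 CPM, above the granule lineage list at 4274 to 4645, so these groups also differ in their mix of markers. Against P7, 1 member rose (Dpf1, where 13.7% of all genes rose) and 3 fell (Actl6b, Dpf3 and Ss18l1, where 20.7% fell). Against P14, 3 rose (Arid1b, Actl6a and Dpf1, against 22.9% of all genes) and 4 fell (Smarca2, Actl6b, Dpf3 and Ss18l1, against 27.2%). Of the 4 neuron-associated subunits, Actl6b, Dpf3 and Ss18l1 were lower and Dpf1 higher in MB in both comparisons, which share the MB libraries.

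**Figure D3:**
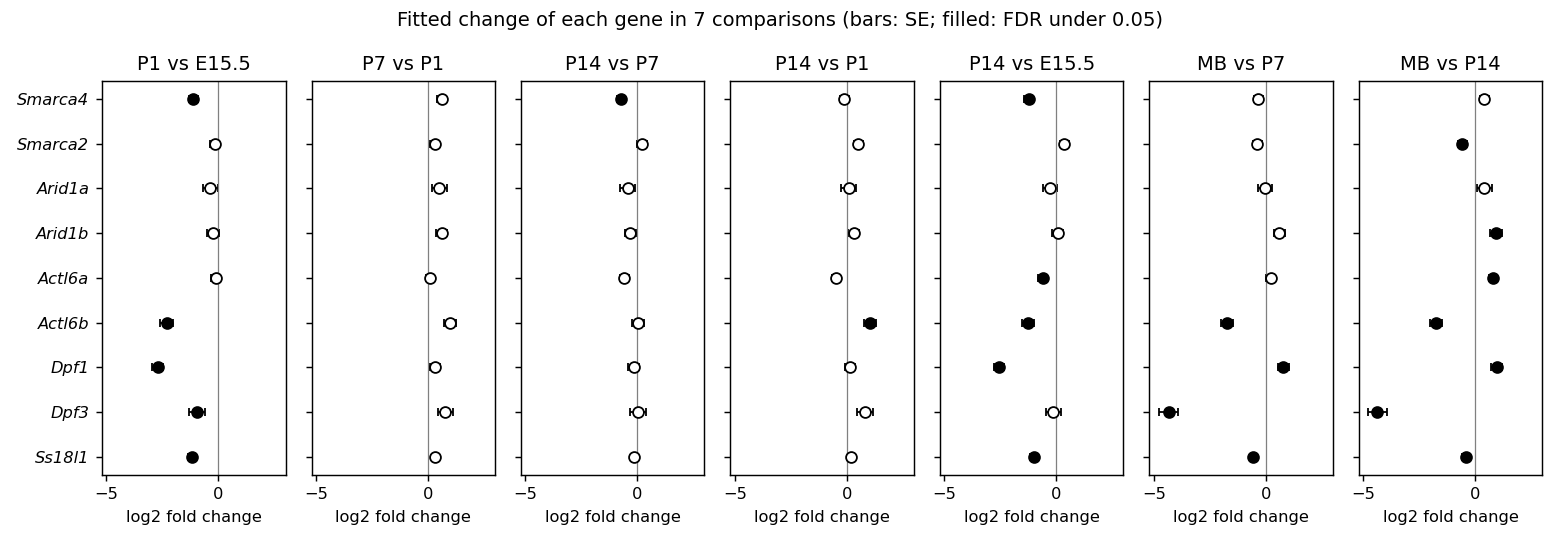
Fitted log2 fold change of each member (x axis) in the 7 comparisons, 1 panel each, with genes on the y axis. Bars are standard errors, filled points have an FDR under 0.05 by edgeR, and the grey line marks no change. The largest changes are those of Dpf3 in MB, -4.34 against P7 and -4.37 against P14.

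Dpf3 was 20.3-fold lower in MB than at P7 (log2 -4.34, SE 0.42, FDR 1.93e-06 by edgeR) and 20.7-fold lower than at P14. The MB libraries held 5, 20 and 11 counts, and every P7 and P14 library held at least 218. In the transcript table, summed over the Dpf3 models, the change against P7 was -3.70 (FDR 2.58e-06 by edgeR). The longest of these models alone held 31, 75 and 87 counts in MB. Actl6b fell by 1.73 against P7 (SE 0.27, 3.31-fold, FDR 1.34e-04) and fell by 1.76 against P14 (FDR 7.02e-05). Ss18l1 fell by 0.55 against P7 (SE 0.16, FDR 0.0138) and fell by 0.42 against P14 (FDR 0.0376). The second of these calls of Ss18l1 was lost without any 1 of P14 replicates 1 to 3 (FDR 0.104, 0.0523 and 0.0985) or of MB replicates 1 and 2 (FDR 0.0572 and 0.133), with no filter (FDR 0.0538), in the transcript table (FDR 0.0724) and with the set term (FDR 0.0902). The first was lost without MB replicate 2 (-0.48, FDR 0.0617) and in a fit of these groups alone (-0.52, FDR 0.0629).

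Dpf1 was higher in MB than at P7 by 0.79 on the log2 scale (SE 0.23, 1.73-fold, FDR 0.0159 by edgeR) and than at P14 by 0.95 (FDR 0.00328). The call against P7 was lost without MB replicate 2 or 3 (FDR 0.0738 and 0.0581), without P7 replicate 2 (FDR 0.0533), in a fit of these groups alone (FDR 0.0701) and with the counting set as a term (0.61, FDR 0.136). Arid1b was higher in MB than at P14 by 0.92 (SE 0.25, 1.90-fold, FDR 0.00662), and against P7 the change of 0.61 was not called (FDR 0.0740), except without P7 replicate 3 (0.85, FDR 0.0265). Actl6a was higher in MB than at P14 by 0.80 (SE 0.19, 1.74-fold, FDR 0.00241), and against P7 its change was 0.22 (FDR 0.406). Smarca2 was lower in MB than at P14 by a log2 change of -0.58 (SE 0.20, FDR 0.0268 by edgeR). The call was lost without P14 replicate 1 (FDR 0.120), without MB replicate 2 or 3 (FDR 0.0993 and 0.0869) and in a fit of these groups alone (FDR 0.0535). It was also lost in the transcript table (-0.33, FDR 0.134), where the overlapping long and short Smarca2 models are summed. Over the long model alone, in the TSS model table, the change was -0.61 (FDR 0.0248). Smarca4 and Arid1a were not called in either comparison. Interneuron markers moved the same way as Actl6b and Dpf3, at 174 to 266 CPM at P7 and 4.96 to 8.21 in MB. The Purkinje, oligodendrocyte, astroglial, vascular and granule lineage lists were also lower in MB than at P7. The microglia and macrophage list was higher, and the choroid plexus list overlapped. The part of these lists in the results was not tested.

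Ratios within a library do not depend on its depth, and are given as a description with no test. The count ratio of Actl6b to Actl6a was 1.58 to 1.90 at E15.5, 0.261 to 0.643 at P1, 0.626 to 0.769 at P7, 1.065 to 1.12 at P14 and 0.124 to 0.237 in MB. It went from above 1 at E15.5 to below 1 at P1 and P7 and back above 1 at P14. In the transcript table, summed over models, reads over the 2 Actl6a models count for each. There the P14 ratio was 0.681 to 0.726 and the E15.5 ratio 1.04 to 1.24. Over the longest models alone, the P14 libraries had 2456, 2968 and 2624 counts for Actl6b and 2153, 2632 and 2418 for Actl6a. Actl6b was thus the higher at P14, as in the gene table, and the side of 1 depends on summing the models. Per kilobase of the longest transcript, the level was 129 ± 36.0 CPM for Actl6b and 60.1 ± 16.8 for Actl6a at E15.5, 25.9 ± 8.93 and 55.2 ± 9.65 at P1, and 53.0 ± 2.07 and 39.2 ± 2.18 at P14 (SD, n = 3). For the count ratio of Actl6b to Actl6a, in either table, the P14 libraries lay below those of E15.5 and above those of P1, P7 and MB.

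The ratio of Ss18l1 to Ss18 had a like range of groups, at 1.32 to 1.64 at E15.5, 0.478 to 0.647 at P1, 0.448 to 0.711 at P7, 0.688 to 0.751 at P14 and 0.287 to 0.457 in MB. Only at E15.5 was it above 1 in these libraries. Dpf1 to Dpf2 was 0.313 to 0.461 at E15.5, 0.0751 to 0.111 at P1, 0.10 to 0.111 at P7, 0.0987 to 0.113 at P14 and 0.111 to 0.208 in MB. Dpf2, the ubiquitous paralog of Dpf1, itself fell from E15.5 to P1 (log2 -0.73, FDR 2.63e-04 by edgeR). Dpf3 to Dpf2 was 0.0275 to 0.0758 over the ages and 0.00142 to 0.00359 in MB in the gene table, and 0.148 to 0.390 and 0.0146 to 0.03275 in the transcript table, so its size depends on the table while MB lay below every age in both. Phf10, a PHD-finger subunit of progenitors, was not analysed here.

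For the ATPases, the ratio of Smarca2 to Smarca4 was lowest at E15.5, at 0.140 to 0.182, and highest at P14, at 0.466 to 0.567. In between it was 0.249 to 0.448 at P1, 0.248 to 0.268 at P7 and 0.200 to 0.353 in MB. Per kilobase, Smarca4 was at 135 ± 12.8 CPM and Smarca2 at 24.4 ± 2.18 at E15.5, and at 57.3 ± 13.9 and 31.1 ± 4.82 at P14 (SD, n = 3). Smarca4 was the more abundant ATPase in every library, while the gap narrowed. Arid1b to Arid1a was 0.421 to 0.649 over the ages and 0.757 to 0.990 in MB, where no library overlapped any age.

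**Figure D4:**
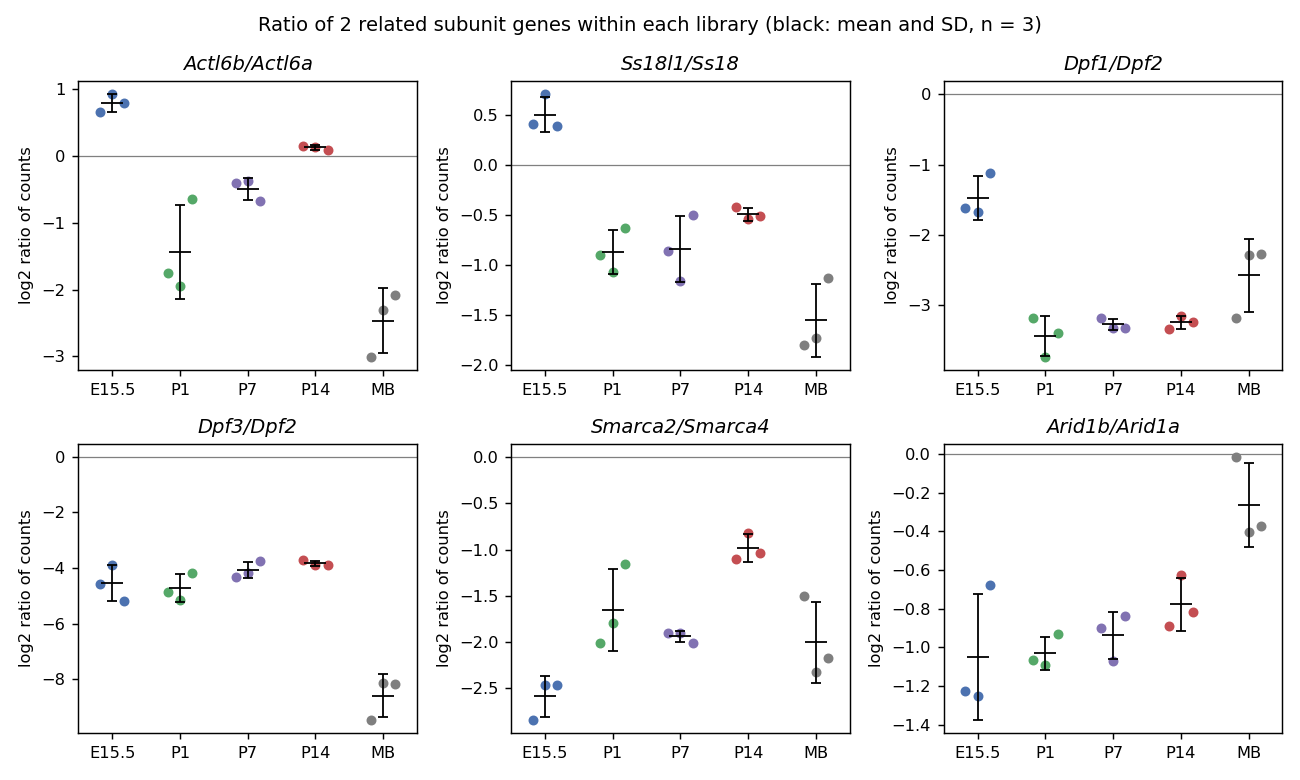
Ratio of counts of 6 pairs of related subunits within each library (y axis, log2 scale) by group (x axis). Points are libraries, black bars the mean and SD (n = 3), and the grey line marks equal counts. For Actl6b to Actl6a the E15.5 and P14 libraries lie above the line and the P1, P7 and MB libraries below it.

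The other subunits of BAF and PBAF were followed as a list of 21 genes, 20 of them with counts, to set the members beside the rest of the complex. From E15.5 to P1, 6 of the 20 fell and 1 rose, against 20.9% and 25.4% of all genes. Bcl11a, a zinc-finger subunit of neural BAF, fell by 2.08 on the log2 scale (FDR 2.36e-06), while Smarcd2 rose by 0.54 (FDR 0.0124). The rise of Smarcd2 was not called without the library labelled P1 replicate 3 (0.44, FDR 0.0587), without both doubted libraries (0.38, FDR 0.126) or in the transcript table (0.41, FDR 0.0528). From P1 to P7, 2 of the 20 rose and 0 fell, against 1.40% and 1.74% of all genes. Smarcc2, a core scaffold subunit, rose by 1.00 on the log2 scale at that step (FDR 0.0140), a call lost without P1 replicate 2 (FDR 0.0998), without P7 replicate 2 (FDR 0.0575) and with the counting set as a term (FDR 0.0761).

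From P7 to P14, 4 of the 20 fell and 0 rose, against 4.51% and 5.81% of all genes, with Smarcc1, the paralog of Smarcc2, at a log2 change of -0.83 (FDR 0.0284). Smarcc1 depended on the table: the change was -0.11 in the transcript table (FDR 0.886), where its model is 1 exon of 2214 bases, and -0.10 in the TSS model table. It was also not called without P7 replicate 2 or 3 (FDR 0.0858 and 0.0953), without P14 replicate 2 or 3 (FDR 0.137 and 0.0968) or with the set term (FDR 0.129). From P1 to P14, 1 of the 20 rose and 2 fell, against 3.63% and 5.31% of all genes. Smarcd3, a subunit of heart and neuronal complexes, rose by 0.93 (FDR 0.0422), and the zinc-finger gene Bcl11b had the larger fall, at -2.56 (FDR 0.0371). Each of these 2 calls was lost without any 1 of P1 replicates 1 and 2 and P14 replicates 1 to 3, with FDR values up to 0.203 for Smarcd3 and 0.158 for Bcl11b.

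From E15.5 to P14, 8 of these 20 genes fell and 1 rose, against 24.2% and 26.7% of all genes, led by Bcl11b at -4.13 (FDR 2.82e-04) and Smarcd2 at 1.06 (FDR 8.36e-05). Dpf2 was lower at P14 by a log2 change of -0.77 (FDR 1.35e-04). Ss18 was not called in either comparison with E15.5. In MB against P7, 3 of the 20 rose and 2 fell (13.7% and 20.7% of all genes), and against P14, 9 rose and 1 fell (22.9% and 27.2% of all genes). Smarcd3 fell by 2.43 against P7 (FDR 9.13e-06) and fell by 3.22 against P14 (FDR 5.62e-07), with 3.21, 5.33 and 5.56 CPM in MB and 40.6, 44.4 and 47.0 at P14. Bcl11b was higher by 2.43 against P7 (FDR 0.0110) and by 3.20 against P14 (FDR 0.00157), though MB replicate 1 had 0.833 CPM where the other two had 9.77 and 7.53. The call of Bcl11b against P7 was lost without MB replicate 2 (1.89, FDR 0.0542), in the groups alone (FDR 0.0575) and with the set term (0.61, FDR 0.546). Ss18, which Ss18l1 replaces, rose against P14 by 0.65 (FDR 0.00732).

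The genes whose log2 CPM followed 3 of the members most closely over the 15 libraries are given as a description. For Dpf1 they were Olfm2 (r = 0.987), Myl6b (0.985) and Lbh (0.955). For Actl6a they were Birc5 (0.953), a gene of dividing cells, Mrps9 (0.950) and Sf3a3 (0.947), and for Smarca4 they were Sf3a1 (0.938), Smarcd1 (0.938), itself a BAF subunit, and Btbd9 (0.932). The libraries share 5 groups, so these values follow mostly the differences between groups. Among the members, Actl6b and Ss18l1 were the pair with the highest correlation (r = 0.888, n = 15), followed by Smarca4 and Dpf1 (0.786), while Smarca2 and Actl6a had -0.65.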

How the data were processed

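RNA-seq of 15 libraries was analysed from raw read counts per gene, which the authors deposited without normalization. Their 2 further tables of counts, per transcription start site (TSS) model and per transcript, served as alternatives. For both, counts were summed over the models of a gene. In the transcript table, reads over overlapping models therefore count for each. The tools Trimmomatic, TopHat, StringTie and HTSeq and the build mm9 are named in the submitters' processing notes, and versions, parameters and the strand setting are not given in the sources used here. Summary lines naming no gene were kept out: 39.5% to 55.4% of records lay in genes, 22.9% to 44.6% had several alignments, 14.1% to 29.2% lay in no gene and 0.520% to 0.749% were ambiguous. Symbols were matched for 20358 of 21889 genes by Ensembl ID.

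Tests used edgeR 4.0.16 under R 4.3.3. The filter was filterByExpr with a minimum of 10 counts and of 15 in total, the scaling was TMM, and the quasi-likelihood fit took all 15 libraries with group as the only factor (10 residual degrees of freedom). P-values were adjusted with Benjamini-Hochberg (FDR) over 15259 genes, and called means an FDR under 0.05. CPM use TMM-adjusted library sizes. Likeness is Pearson's r of log2 CPM (prior count 2). Code was tested on simulated data.

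The text names all members, Ss18, Phf10, Dpf2, the other BAF gene with the largest called change in each direction of each comparison, fixed paralog ratios and the 3 genes most like each of 4 members (those of Actl6b are not reported here). Members and lists were chosen with earlier results of these data known. Alternatives were RLE size factors, DESeq2 1.42.0, no filter, the groups compared alone, a replicate block, the other 2 tables, the counting set as a term or held fixed, and leaving out each library. Leaving out both doubted libraries (E15.5 replicate 3 and the library labelled P1 replicate 3) was added after seeing the data. TSS models were matched for 5 of the 9 members.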

Additional observations from a re-analysis of the deposited data

How the results depend on the processing

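Of 919 alternative values of the members' log2 changes, 822 kept their direction and side of the threshold, 39 lost a call, 31 gained one and 27 changed sign, each of the last for a change that was not called. The number of members called moved in the TSS model table, which held only 5 members, to 3 among the 4 ages, 3 at P1 and 3 at P14 against E15.5, 2 in MB against P7 and 4 against P14. For P7 against P1 (0 called), DESeq2 gave 2, and RLE size factors, no filter, the transcript table, the TSS model table, the replicate block and leaving out both doubted libraries gave 1 each. For P14 against P7 (1), DESeq2, the groups alone and the transcript table gave 2 and the set term 0. For P14 against P1 (1), the groups alone gave 3, 1 counting set 3 and both doubted libraries left out 4. For MB against P7 (4), the groups alone gave 2. Leaving out single libraries gave 0 to 1, 0 to 1, 0 to 3 and 2 to 5 in these 4 comparisons.

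Signs changed for Actl6a at P1 against E15.5 (0.07 with the set term, 0.21 in 1 set, 0.22 without both doubted libraries, -0.27 to 0.08 without single libraries) and at P7 against P1 (-0.19, -0.05 without both, -0.04 to 0.21), for Actl6b at P14 against P7 (-0.02 in the transcript table, -0.19 with the set term, -0.06 to 0.12), for Dpf3 at P14 against P7 (-0.99 with the set term, -0.13 to 0.27) and E15.5 (-0.46 to 0.24), for Arid1b at P14 against E15.5 (-0.17, -0.34 in 1 set, -0.25 without both, -0.25 to 0.28), for Arid1a at P14 against P1 (-0.17 to 0.28) and E15.5 (-0.69 to 0.04) and in MB against P7 (0.00 for the groups alone, -0.13 to 0.15), and for Smarca4 at P14 against P1 (-0.31 to 0.05). Outside the members, Smarcc1 was lower at P14 in the gene table against E15.5 and P1 and changed sign in the transcript table (0.21 and 0.42) and the TSS model table (0.23 and 0.42). The cause was not tested.

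Over all genes, 480 calls at P7 against P1 became 1225 with DESeq2, 203 in the groups alone, 248 with the replicate block, 197 with the set term, 1239 without both doubted libraries and 9 to 888 without single libraries. At P14 against P7, 1574 became 2418 with DESeq2, 3838 in the groups alone, 295 with the set term and as few as 125 without 1 library. At P14 against P1, 1364 became 2407, 4089, 4714 in 1 set, 3325 without both and 154 to 2714. Replicate numbers did not pair the libraries: 6 of 30 same-number pairs had r over 0.1 (-0.312 to 0.332), and 4 of 15 libraries matched best with their own number. With the replicate block the members called were 4 among the ages and 4 at P1 against E15.5, 1 at P7 against P1, 1 at P14 against P7, 1 at P14 against P1, 5 at P14 against E15.5, and 4 and 6 in MB against P7 and P14: it lost Dpf3 at P1 against E15.5 (-0.95, FDR 0.0536) and Ss18l1 in MB against P14 (-0.43, FDR 0.0570) and gained Actl6b at P7 against P1 (1.05, FDR 0.0487). A fit in 1 counting set could not be had for P7 or for the 4 ages. Counts of 5 to 20 per library limit the precision of Dpf3 in MB.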
